A study of Homo sapiens with 4 samples.

Results

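The genes described here carry out glucose uptake and glycolysis, export lactate, answer to glucose, or belong to the hypoxia response. The 40 members were chosen by name, for these roles and not for their values: 2 glucose transporters, 2 hexokinases, 7 enzymes of upper glycolysis, 3 bifunctional PFKFB enzymes, 6 enzymes of lower glycolysis, 5 genes of lactate production and export, 2 glucose-responsive arrestins, 5 genes of the hypoxia-inducible factor (HIF) and its hydroxylases, and 8 HIF target genes. Earlier results of these data were known when the members were chosen. All 40 were found among the 40205 genes listed in the deposited tables. RNA-seq had been performed on human lung cancer cells after 24 h of transfection, with 2 libraries from negative control siRNA (NC 1 and NC 2) and 2 from siRNA against circZFR (si-circZFR 1 and si-circZFR 2), a circular RNA made from exons of *ZFR*. No glucose withdrawal or low oxygen is named for these libraries, so each level is that of transfected cells grown in RPMI medium with fetal calf serum. The comparison asks whether the transcripts of glucose use and the hypoxia response differed when circZFR was targeted.

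In glycolysis, glucose enters the cell through carriers of the SLC2A family, is phosphorylated by a hexokinase and is split and oxidised to pyruvate in a fixed chain of reactions. Lactate dehydrogenase turns pyruvate into lactate, which leaves through SLC16A carriers. Many of these genes are also targets of HIF, a transcription factor whose alpha subunit is destroyed when prolyl hydroxylases have oxygen to use, and lung adenocarcinoma cells often express them at high levels even with oxygen present.

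The siRNA is shown because it defines the treated group. Its sense strand, as listed by the study, has 21 bases, of which 19 precede the overhang.

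si-circZFR: ccaagcuggCCCUUACGUCtt

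The capitals mark the 10 bases that lie upstream of the 9 lower-case bases in the linear *ZFR* transcript, and the 19 bases as 1 run were not found in that transcript (GENCODE, GRCh38). The stretch from the start of the capital part to the end of the first part spans 693 bases of it.

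The sample labels name the cells H1299, whereas the study's design text and methods name A549. *CDKN2A*, which A549 cells have lost, was listed at 0 in all 4 libraries. *MTAP*, which A549 cells have lost too, stood at a scaled RPKM of 1.28 to 2.98. *FGB*, which is high in A549 cells, stood at 0.775 to 2.60. *AKR1B10*, *AKR1C1*, *KRT18* and *VIM* were high in every library, at 1296 to 1677, 515.2 to 686, 1243 to 1786 and 528 to 665, and *EPCAM*, *FGB* and *CDH1* were lower. Some markers differed between the groups without overlap and without passing the test. The epithelial adhesion gene *CDH1* stood at 11.4 and 8.52 in NC and at 21.7 and 21.3 in si-circZFR (log2FC 1.05, SE 0.18, limma FDR = 0.0820). *EPCAM* stood at 0.397 and 0.402 against 1.83 and 2.66, on 4 and 4 reads against 18 and 28. *FGB*, *MTAP*, *COL1A1* and *KRT18* were higher in both si-circZFR libraries too, with mean ratios of si-circZFR to NC of 2.12, 1.87, 2.17 and 1.28, and *VIM* was lower in both, at 0.882. The part of these markers in the values of the members below was not tested. The leukocyte genes *PTPRC* and *CD3E* and the fibroblast gene *DCN* were listed at 0, *PECAM1* of endothelium at no more than 0.0239, and *COL1A1* at 0.612 to 1.89. Which of the 2 lines was used was not settled by these levels. Recovered library totals ran from 11040050 to 12816868 reads. The host gene *ZFR* stood at 26.0 and 31.9 in NC and at 5.25 and 4.63 in si-circZFR, and was 1 of the 8 genes of 13885 tested (0.0576%) that passed the threshold. Its log2FC was −2.33 (SE 0.17, limma FDR = 0.0388). By RT-PCR the study reports no change of *ZFR* that could be detected with its siRNA. RPKM per gene does not set circZFR apart from linear *ZFR*. The parts of circZFR and of linear *ZFR* in the differences below cannot be told apart here and were not tested.

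Levels are given as scaled RPKM, that is deposited RPKM divided by 1 scaling factor per library, and log2FC is the difference si-circZFR minus NC of the group means of log2(scaled RPKM + 1), which understates the change of low genes. A gene passed at a false discovery rate (FDR, Benjamini-Hochberg over all genes tested by limma) under 0.05 with an absolute log2FC over 1. In bulk RNA, fewer cells carrying a transcript and less of it per cell cannot be told apart. Nothing in the labels says that the libraries of a group came from separate cultures. The p-values thus rest on the spread between libraries, which may be technical. Limma's error for a gene joins its own spread with a prior set by genes of similar level. It can therefore be larger or smaller than the gene's own spread would give.

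Of the 40 members, 36 were expressed well enough to be tested, and *HK2*, *TXNIP*, *ARRDC4* and *ANKRD37* were not. None of the 36 passed, where 4 genes of all those tested passed as lower (0.0288%) and 4 as higher (0.0288%). At an unadjusted p under 0.05 limma found 6 members lower (*PGAM1*, *PFKM*, *NDRG1*, *ALDOC*, *SLC16A1* and *ADM*) and 2 higher (*PFKL* and *SLC2A3*), beside 11.5% and 10.1% of all genes tested. Limma-voom on recovered reads passed 1 member, *PGAM1*, beside 2.16% of all genes tested, and limma-voom with a filter of 1 CPM (a read count scaled to depth) passed *PGAM1* again, beside 2.47%. With that filter limma passed no member, beside 1.33%, and with a length correction and the replicate number as a block it passed *PGAM1* and *NDRG1*, beside 2.65%. In 18 of the 36 members both si-circZFR values lay below both NC values, beside 28.1% of all genes tested, and in 6 they lay above, also beside 28.1%. The log2FC was below 0 for 22 members, beside 49.3% of all genes tested, and its absolute value exceeded 0.5 for 11, beside 24.0%. The median log2FC of the members was −0.26, against 0.01 for all genes tested. Medians by role ran both ways. The enzymes from hexokinase to lactate dehydrogenase had a median log2FC of −0.41, with 15 of 16 tested below 0, while the HIF targets had a median of 0.08, with 3 of 7 below 0.

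**Figure D1:**
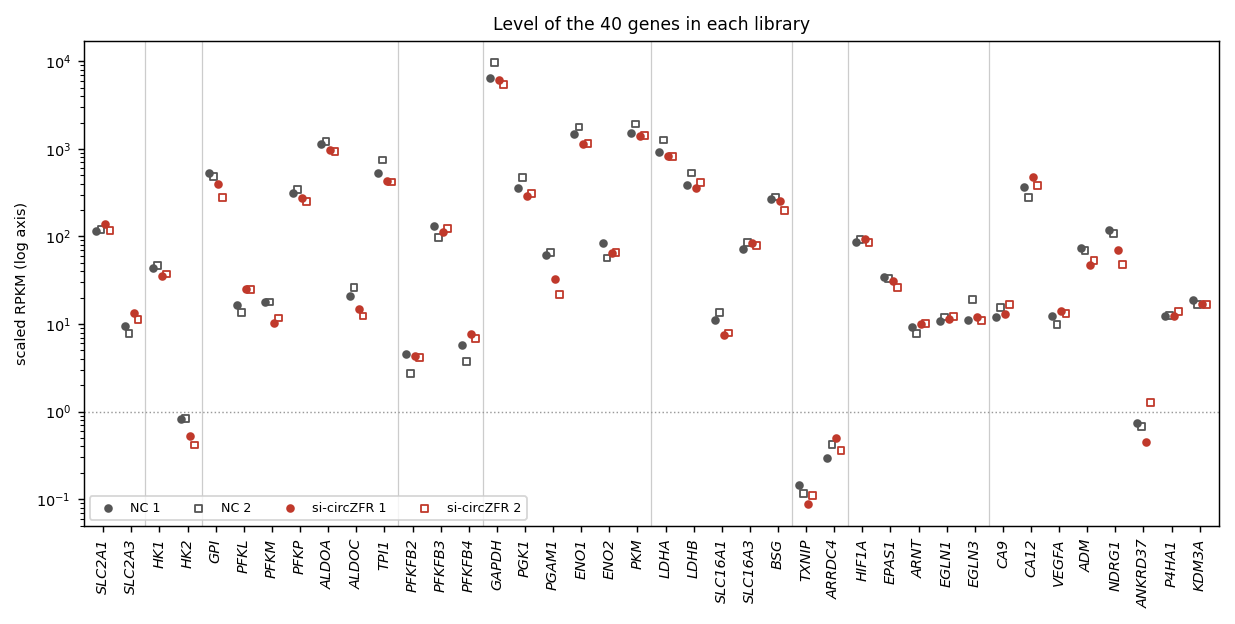
Scaled RPKM on a log axis of the 40 genes, ordered by role with grey lines between roles, with 1 point for each of the 4 libraries; the dotted line marks an RPKM of 1. *GAPDH* was the highest member, at 5483 to 9620, and *TXNIP* the lowest, at 0.0885 to 0.144.

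The 2 controls differed among themselves in these genes. For 14 of the 36 members the absolute log2 difference between NC 2 and NC 1 was larger than the absolute log2FC. The same count was not made over all genes tested. The median difference NC 2 minus NC 1 was 0.20 for the enzymes, and −0.02 between the si-circZFR libraries. Against NC 1 alone the median enzyme difference was −0.30 in each si-circZFR library, and against NC 2 alone it was −0.59 in each. *GAPDH* is 1 example, with a difference of 0.57 between the controls and a log2FC of −0.44, and *EGLN3* is another, at 0.72 and −0.34.

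**Figure D2:**
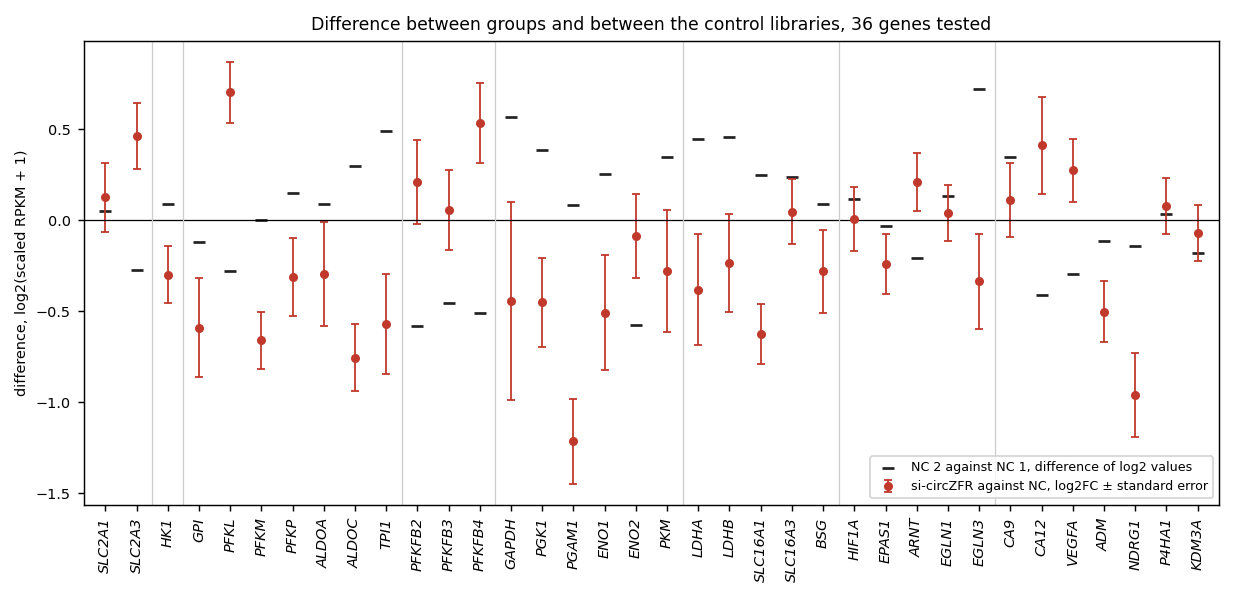
Differences on the log2(scaled RPKM + 1) scale for the 36 genes tested, with the log2FC of si-circZFR against NC as red points with their standard error and the difference of NC 2 against NC 1 as black dashes. *PGAM1* lies lowest at −1.21 and *PFKL* highest at 0.70, and for both the dash is nearer to 0 than the red point.

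Both glucose transporters had values above 0 on the log2FC scale. *SLC2A1*, which encodes GLUT1, the main basal glucose carrier of most cancer cells, stood at 115.4 and 119.4 in NC and at 139.5 and 117.7 in si-circZFR. The groups overlapped (log2FC 0.13, SE 0.19, limma FDR = 0.723). *SLC2A3*, which encodes GLUT3, a high-affinity carrier typical of neurons, stood at 9.57 and 7.76 in NC and at 13.4 and 11.2 in si-circZFR. Both si-circZFR values were the higher ones, with means of 8.66 ± 1.28 (SD, n = 2) and 12.3 ± 1.59 (SD, n = 2), and the log2FC of 0.46 (SE 0.18, limma FDR = 0.221) did not pass. Reads of *SLC2A3* are uncertain, since it has 3 named pseudogene copies whose reads came to between 23.9% and 43.9% of its own.

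The hexokinases, which trap glucose in the cell as glucose phosphate, are represented among the members by *HK1* and *HK2*, of which *HK1* was by far the higher. *HK1* stood at 43.3 and 46.2 in NC and at 35.0 and 37.4 in si-circZFR. Both si-circZFR values lay lower, with a ratio of the means of 0.809, and the log2FC was −0.30 (SE 0.16, limma FDR = 0.319). *HK2*, the hexokinase most often raised in tumours, was too low to be tested, with 68 and 68 reads in NC and 43 and 36 in si-circZFR. Its scaled RPKM was 0.817 and 0.828 against 0.529 and 0.415. *HKDC1*, a further hexokinase that is no member, was about as high as *HK1*, at 49.9 and 43.1 in NC and 48.2 and 56.5 in si-circZFR, with overlap.

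Upper glycolysis runs from glucose phosphate to the triose phosphates. Of its 7 members, 6 had both si-circZFR values below both NC values and 1, *PFKL*, had both above, beside 28.1% of all genes tested in each direction, and the median log2FC was −0.57. *GPI*, the isomerase that makes fructose phosphate, stood at 528 and 485 in NC and at 401 and 281 in si-circZFR (log2FC −0.59, SE 0.27, limma FDR = 0.271). *TPI1*, which interconverts the triose phosphates, stood at 533 and 748 in NC and at 431 and 419 in si-circZFR (log2FC −0.57, SE 0.28, limma FDR = 0.289). In *GPI* the spread was mainly between the si-circZFR libraries, and in *TPI1* between the controls. *TPI1* reads are also uncertain, since its 4 named copies held reads equal to between 34.6% and 40.1% of its own.

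Phosphofructokinase commits sugar to glycolysis, and its 3 subunit genes did not share 1 direction. *PFKM*, the muscle-type subunit, stood at 17.9 and 17.9 in NC and at 10.2 and 11.7 in si-circZFR, a mean ratio of si-circZFR to NC of 0.614 (log2FC −0.66, SE 0.16, limma FDR = 0.114). *PFKL*, the liver-type subunit, stood at 16.5 and 13.5 in NC and at 25.1 and 24.7 in si-circZFR, a mean ratio of 1.66 (log2FC 0.70, SE 0.17, limma FDR = 0.115). Neither pair of groups overlapped, neither gene passed, and the sign of each held under all 15 other settings tried. *PFKP*, the platelet-type subunit and by far the most abundant of the 3, stood at 310.2 and 344 in NC and at 277 and 249.1 in si-circZFR (log2FC −0.31, SE 0.21, limma FDR = 0.430).

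The aldolases cleave fructose bisphosphate. *ALDOA*, among the most abundant members, stood at 1134 and 1207 in NC and at 975 and 933 in si-circZFR, a log2FC of −0.29 (SE 0.29, limma FDR = 0.575). *ALDOC*, the brain-type aldolase, stood at 21.1 and 26.2 in NC and at 14.8 and 12.4 in si-circZFR. Its means were 23.6 ± 3.58 (SD, n = 2) and 13.6 ± 1.72 (SD, n = 2), with no overlap (log2FC −0.76, SE 0.18, limma FDR = 0.117). The rarer aldolase thus had the larger difference on the log2 scale, and neither gene passed.

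The PFKFB enzymes make and break the sugar phosphate that switches phosphofructokinase on. None was lower than 0 in log2FC. *PFKFB4* stood at 5.78 and 3.76 in NC and at 7.71 and 6.78 in si-circZFR, with both si-circZFR values higher (log2FC 0.54, SE 0.22, limma FDR = 0.232). *PFKFB2*, at 4.54 and 2.71 in NC and 4.32 and 4.18 in si-circZFR, overlapped (log2FC 0.21, SE 0.23, limma FDR = 0.623), and its sign turned to −0.08 when NC 2 was left out. *PFKFB3*, the most abundant of the family, ranged from 96.5 to 133 with overlap, and its log2FC of 0.06 (SE 0.22) changed sign under the correction for transcript length, with and without the replicate block, and without NC 2.

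Lower glycolysis, which yields ATP and pyruvate, held the member with the largest difference. *PGAM1*, the phosphoglycerate mutase, was carried by 1571 and 1645 reads in NC and by 826 and 575 in si-circZFR. In scaled RPKM it stood at 61.4 and 65.1 in NC and at 33.0 and 21.5 in si-circZFR, with means of 63.2 ± 2.62 (SD, n = 2) and 27.3 ± 8.13 (SD, n = 2), a ratio of 0.431. The 2 controls lay close together and the treated libraries lay well below them and further apart. The log2FC was −1.21 (SE 0.23, limma FDR = 0.0877), and it passed under 3 of the 15 other settings, with FDR = 0.0363 in limma-voom on recovered reads, 0.0301 in limma-voom with the filter of 1 CPM and 0.0252 in limma with both the length correction and the replicate block. Over all settings its limma or limma-voom FDR ran up to 0.511, reached without si-circZFR 2. *PGAM1* has 13 named copies, whose reads together came to between 1.34% and 4.12% of its own.

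The other lower-glycolytic enzymes had smaller differences, and all but *ENO2* had higher levels than *PGAM1* in every library. *GAPDH*, the highest member and a gene often used for normalization, stood at 6483 and 9620 in NC and at 6142 and 5483 in si-circZFR. The si-circZFR values were the lower ones, yet NC 1 lay nearer to them than to NC 2, and the log2FC of −0.44 (SE 0.54, limma FDR = 0.659) was smaller than its error. With a prior that did not depend on level, the SE of *GAPDH* was 0.24 (limma FDR = 0.329). *ENO1*, the main enolase, stood at 1491 and 1777 in NC and at 1137 and 1154 in si-circZFR (log2FC −0.51, SE 0.32, limma FDR = 0.390). *PKM*, the pyruvate kinase of most growing cells, stood at 1513 and 1925 in NC and at 1397 and 1419 in si-circZFR (log2FC −0.28, SE 0.33, limma FDR = 0.654). *PGK1*, which makes the first ATP of the chain, stood at 360 and 470.3 in NC and at 294 and 308 in si-circZFR (log2FC −0.45, SE 0.24, limma FDR = 0.330). In all 3 the controls spread more widely than the si-circZFR libraries. *ENO2*, the neuronal enolase, was the exception in the role, with a control at 84.7 and another at 56.6 on either side of si-circZFR at 65.1 and 65.3, and its log2FC of −0.09 (SE 0.23) changed sign without scaling and without NC 1.

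Of the 5 genes of lactate production and export, 4 had a log2FC below 0, beside 49.3% of all genes tested, and 3 had both si-circZFR values below NC, beside 28.1%. *LDHA*, the lactate dehydrogenase subunit favoured in tumours, stood at 925 and 1261 in NC and at 836 and 823 in si-circZFR (log2FC −0.38, SE 0.31, limma FDR = 0.497). *LDHB*, the heart-type subunit, overlapped, at 385 and 529 against 353 and 416. *SLC16A1*, which encodes the carrier MCT1 for lactate and pyruvate, stood at 11.3 and 13.6 in NC and at 7.45 and 7.91 in si-circZFR, a mean ratio of 0.618 with no overlap (log2FC −0.62, SE 0.17, limma FDR = 0.130). *SLC16A3*, which encodes the export carrier MCT4, was more abundant and overlapped, at 72.1 and 85.1 against 83.1 and 78.8. Its log2FC of 0.05 (SE 0.18) changed sign without NC 1. *BSG*, the chaperone that brings both carriers to the surface, stood at 265 and 282 against 257 and 198 (log2FC −0.28, SE 0.23, limma FDR = 0.506).

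The arrestins *TXNIP* and *ARRDC4* are induced by glucose through MondoA and restrain glucose uptake. Both were close to silent in all libraries. *TXNIP* had 5 and 4 reads in NC and 3 and 4 in si-circZFR, and *ARRDC4* had 14 and 20 against 23 and 18. A difference between the groups was not detectable at this depth.

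Among the genes that sense oxygen, no member separated by more than 0.5 on the log2FC scale. *HIF1A*, the alpha subunit regulated mainly at the protein level, stood at 85.7 and 92.9 in NC and at 94.6 and 84.9 in si-circZFR (log2FC 0.01, SE 0.17, with a sign that changed under 4 settings). *EPAS1*, which encodes HIF-2 alpha, was lower in both si-circZFR libraries, at 34.03 and 33.3 against 30.8 and 26.1 (log2FC −0.24, SE 0.16, limma FDR = 0.430). *ARNT*, the shared beta subunit, was higher in both, at 9.19 and 7.84 against 9.96 and 10.05 (log2FC 0.21, SE 0.16, limma FDR = 0.469). The prolyl hydroxylase *EGLN1* overlapped, at 10.9 to 12.1 in all 4 libraries. *EGLN3*, a hydroxylase that is itself a HIF target, was near 11 to 12 in 3 libraries and at 19.2 in NC 2. Its log2FC of −0.34 (SE 0.26) turned to 0.02 without NC 2.

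The HIF targets split. *NDRG1*, a gene induced by hypoxia and other stress, was carried by 4839 and 4336 reads in NC and by 2765 and 2038 in si-circZFR. Its scaled RPKM was 118.6 and 107.6 in NC and 69.4 and 47.9 in si-circZFR, with means of 113.1 ± 7.76 (SD, n = 2) and 58.6 ± 15.2 (SD, n = 2), a ratio of 0.518. The groups lay far apart (log2FC −0.96, SE 0.23, limma FDR = 0.115), and the gene passed under the length correction with the replicate block (log2FC −1.01, FDR = 0.0343) and under no other setting. *ADM*, which encodes the vasodilator peptide adrenomedullin, stood at 74.7 and 68.9 in NC and at 47.6 and 53.4 in si-circZFR (log2FC −0.50, SE 0.17, limma FDR = 0.177). These 2 genes were the only ones of the 7 HIF targets tested whose si-circZFR values both lay below NC. That share of 28.6% is near the 28.1% of all genes tested.

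The remaining HIF targets did not share that direction. *CA12*, a carbonic anhydrase of the cell surface, stood at 370.4 and 279 in NC and at 484 and 379 in si-circZFR (log2FC 0.41, SE 0.27, limma FDR = 0.411). *VEGFA*, the angiogenic growth factor, stood at 12.5 and 9.97 against 14.2 and 13.2 (log2FC 0.28, SE 0.17, limma FDR = 0.395). In both genes the si-circZFR values were the higher ones, 28.6% of the HIF targets tested beside 28.1% of all genes tested. In both, the nearest values of the groups differed by less than either group's range. *CA9*, the carbonic anhydrase used as a marker of hypoxia, overlapped at 11.9 and 15.4 against 13.0 and 16.6, as did the collagen hydroxylase *P4HA1* at 12.2 to 13.9 and the histone demethylase *KDM3A* at 16.6 to 18.9. *ANKRD37* had 10 and 9 reads in NC and 6 and 18 in si-circZFR.

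**Figure D3:**
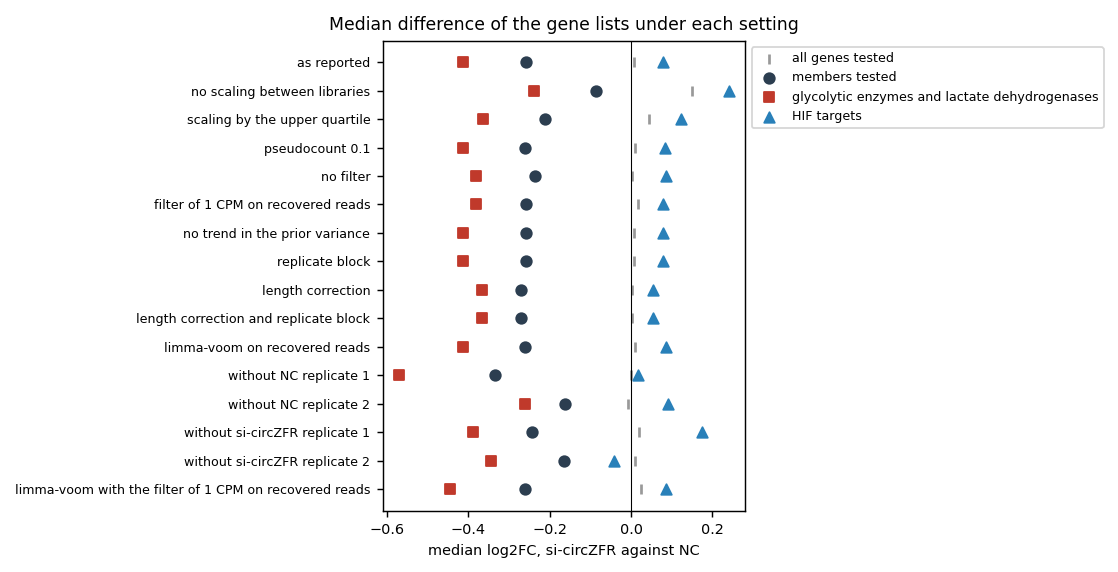
Median log2FC of the enzymes (red squares), all members tested (dark circles), the HIF targets (blue triangles) and all genes tested (grey ticks), for the fit as reported and 15 other settings named on the left. The enzyme median stays below 0 throughout, between −0.57 without NC 1 and −0.24 without scaling, and the HIF target median lies on either side of 0.

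The enzyme median kept its direction under the other scalings tried, though not its size. Without scaling, all genes tested had a median of 0.15, the enzymes −0.24 and the HIF targets 0.24. Relative to all genes the enzymes then stood at −0.39. Leaving out NC 2 brought the enzyme median to −0.26 and the member median to −0.16, and leaving out si-circZFR 2 brought the member median to −0.17. Transcript length moved with the differences: across all genes tested the median log2FC was −0.25 below 1500 bases, −0.03 from 1500 to 3000, 0.08 from 3000 to 5000 and 0.14 from 5000 up. The enzymes tested had a median length of 2589.5 bases, against 3842.5 for the other members and 2702 for all genes. The lengths recovered for *PGK1* and *CA12* are uncertain by a factor of 2. With a length correction the enzyme median was −0.37. In 13 of the 16 enzymes both si-circZFR values then lay below both controls, beside 28.0% of all genes tested.

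Read shares give the size of the pathway in these cells. The 17 enzyme genes took 2.85% and 3.37% of all reads in NC and 2.59% and 2.67% in si-circZFR. Without *GAPDH* the shares were 1.96% and 2.15% against 1.71% and 1.81%. Both counts put the si-circZFR libraries below both controls. Both include *PGK1*, whose reads are uncertain by a common factor of 2. As shares of summed RPKM, which weighs short genes more, the 17 genes took 2.66% and 2.93% in NC and 2.65% and 2.93% in si-circZFR, and these overlap.

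Several steps can be served by more than 1 gene, and RPKM lets the paralogues be set side by side within a library. *PFKL* made up 4.79% and 3.58% of summed phosphofructokinase RPKM in NC and 8.03% and 8.65% in si-circZFR. *PFKP* supplied 90.02% and 91.7% in NC against 88.7% and 87.2%, and *PFKM* 5.19% and 4.76% against 3.26% and 4.11%. The subunit mix thus held a larger *PFKL* part in both si-circZFR libraries, by 4.15 percentage points on the means. *SLC16A3* made up 86.5% and 86.2% of the sum of *SLC16A1* and *SLC16A3* in NC and 91.8% and 90.9% in si-circZFR, 4.96 points more. *LDHA* took 70.6% and 70.4% of the sum of *LDHA* and *LDHB* in NC and 70.3% and 66.4% in si-circZFR, so si-circZFR 1 lay almost at the control level.

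The rarer partners of the other pairs were small throughout, and genes outside the 40 members do not enter these sums. *HK2* was 1.85% and 1.76% of the sum of *HK1* and *HK2* in NC and 1.49% and 1.10% in si-circZFR, and *ALDOC* was 1.83% and 2.12% of the sum of *ALDOA* and *ALDOC* against 1.49% and 1.31%. *SLC2A3* was 7.66% and 6.10% of the sum of *SLC2A1* and *SLC2A3* against 8.79% and 8.69%, but with pseudogene copies added its mean difference shrank from 1.86 to 0.27 points and the groups overlapped. *ENO2* was 5.38% and 3.09% of the sum of *ENO1* and *ENO2* against 5.42% and 5.36%, with overlap between the groups. In a 2-sided exact permutation test, 8 of these 9 shares gave p = 0.333, the smallest that 2 against 2 libraries allow, and *ENO2* gave p = 0.667, so none can reach 0.05.

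**Figure D4:**
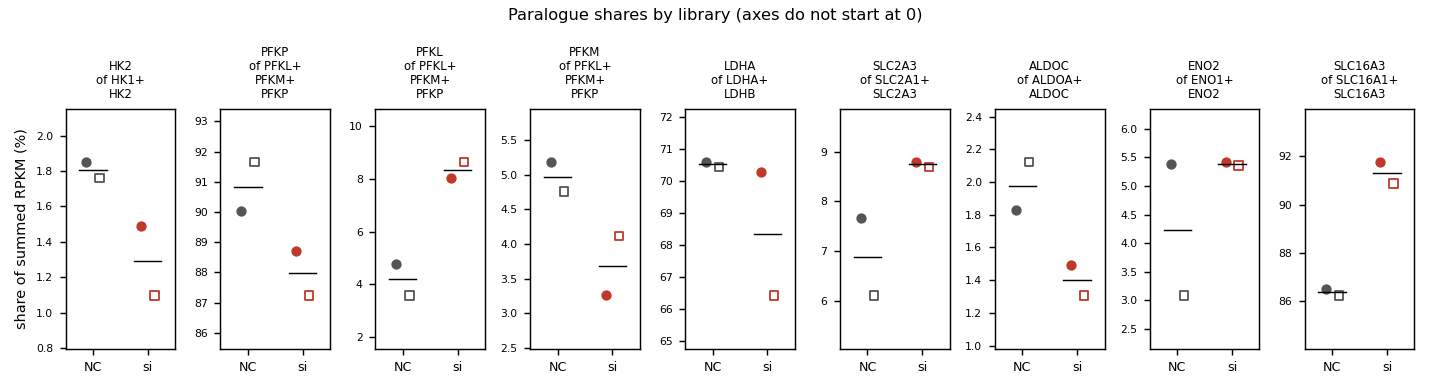
Share in percent of 1 paralogue in the summed RPKM of its set, for 9 paralogues, with NC as dark and si-circZFR as red symbols (filled circle for library 1, open square for library 2) and bars at the group means; the axes do not start at 0. The shares of *PFKL* and *SLC16A3* lie higher in both si-circZFR libraries than in NC, while *ENO2* overlaps.

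Abundant glycolytic genes have left many processed copies in the genome, and their near identity means that reads can be split between gene and copy. Named copies were listed for 13 members, 105 in all, of which 79 were above 0 and 36 were tested. Of these 36, 33 had a log2FC below 0, beside 49.3% of all genes tested, with a median of −0.66. Genes under 1500 bases had a median of −0.25 over the whole table, and the part of length in the values of the copies was not tested. *GAPDH* alone had 61 copies, of which 16 were tested. All 16 lay below 0, at a median of −0.97, while their reads came to between 1.58% and 3.22% of those of *GAPDH*. All 6 copies of *LDHA* were tested and lay below NC in both si-circZFR libraries, beside 28.1% of all genes tested. Their reads came to 4.91% to 7.48% of those of *LDHA*. Counts of gene and copy were not separable here, so the copies are not independent of their parent genes.

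The core of the hypoxia response element, ACGTG, which reads CACGT from the other strand, was searched in 300-base promoter windows from RefSeq (GRCh38.p14), from 250 bases before to 50 after each start. It occurred in 20 of the 35 members with a window (57.1%), in 11 of 17 enzymes (64.7%) and in 9 of the other 18 members. A gene was counted if any of its windows held the core. The hits include *HK2*, *TXNIP*, *ARRDC4* and *ANKRD37*, which were not tested. The share was 21.4% over all 35116 windows taken singly and 33.1% over the 8759 genes tested that had one. CACGTG, the E-box, which contains the same 5 letters, occurred in 9 members (25.7%), with the untested *HK2*, *ARRDC4* and *ANKRD37* among them. It occurred in 7.26% of all windows taken singly and in 12.9% of the genes tested. Windows of genes that lay lower and of genes whose groups overlapped both held the core, as these stretches show, with the core or its reverse in capitals.

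ALDOC, chr17:28577118-28577145, minus strand: aagtgcccggcACGTGgtaaagggattg

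PFKM, chr12:48105347-48105375, plus strand: agatccagagatCACGTtagggtacacca

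PGK1, chrX:78104034-78104062, plus strand: gcggcgtgccggACGTGacaaacggaagc

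LDHA, chr11:18394465-18394493, plus strand: agcccgactcacACGTGggttcccgcacg

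GAPDH, chr12:6535172-6535200, plus strand: ctctgcggggtcACGTGtcgcagaggagc

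CA9, chr9:35673898-35673926, plus strand: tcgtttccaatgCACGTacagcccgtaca

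EGLN1, chr1:231422284-231422312, minus strand: gggccgtggtgtACGTGcagagcgcgcag

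*ALDOC* and *PFKM* lay lower in si-circZFR, *PGK1*, *LDHA* and *GAPDH* lay lower by about as much as the controls differed or by less, and *CA9* and *EGLN1* overlapped. *PGAM1* and *PFKL*, the members at the ends of the log2FC range, held no ACGTG in their windows. A match is a run of letters and was not tested as a binding site.

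The 7-mer CTGACTC, taken up from an earlier analysis of the same libraries, was counted in 3′ untranslated regions (GENCODE, GRCh38). It occurred in 5 of 36 members tested (13.9%), *ALDOC*, *PFKFB2*, *SLC16A3*, *EPAS1* and *CA12*, near the 11.3% of 10448 genes tested with an annotated region. The 8-mer CTGACTCA, which contains it, occurred in *ALDOC* and *PFKFB2*, whose sites are shown with the 7-mer in capitals.

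ALDOC: gtacagaagccCTGACTCatgccttgagt

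PFKFB2: tatgcttaataCTGACTCagaatctctgg

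*ALDOC* had a log2FC of −0.76 and *PFKFB2* one of 0.21, and *PGAM1*, *NDRG1*, *PFKM* and *SLC16A1* held no CTGACTC there.

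For context, 77 further genes of the same pathways were read from the same fit, of which 59 were tested. None passed in limma, 7 were lower and 6 higher at an unadjusted p under 0.05, beside 11.5% and 10.1% of all genes tested, and limma-voom on recovered reads passed 1, beside 2.16%. Their median log2FC was 0.06, with 29 below 0 and 30 above. Both si-circZFR values lay below NC in 19 (32.2%) and above in 15 (25.4%), near the 28.1% of all genes tested in each direction. The 14 tested genes of other glycolysis and transport steps had a median of 0.18, in contrast to the 16 enzymes at −0.41, a difference that was not tested. The 9 tested genes of oxygen sensing had a median of −0.32, and the 31 tested HIF targets outside the 40 members one of −0.00.

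*ERO1L*, the current *ERO1A* and a HIF-induced oxidase of protein folding, had the smallest p among them. It stood at 10.7 and 8.89 in NC and at 22.6 and 24.7 in si-circZFR (log2FC 1.19, SE 0.17, limma FDR = 0.0759). It passed under 5 of the 15 other settings, limma-voom on recovered reads among them. *VLDLR*, a lipoprotein receptor, and *EGLN2*, a prolyl hydroxylase, were the next of the higher genes, with log2FC of 0.54 (SE 0.15, limma FDR = 0.144) and 0.48 (SE 0.16, limma FDR = 0.177). On the lower side stood *MLX*, the partner of MondoA, at −0.60 (SE 0.16, limma FDR = 0.135), the arrestin *ARRDC3* at −0.65 (SE 0.18, limma FDR = 0.136) and *TCEB1*, the current *ELOC* and a subunit of the ubiquitin ligase that removes HIF, at −0.53 (SE 0.16, limma FDR = 0.150). All 6 had groups that did not overlap, which their choice by the smallest p makes likely. Of all genes tested, 28.1% lay below without overlap and 28.1% above.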

How the data were processed

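RNA-seq of 2 NC and 2 si-circZFR libraries was analysed. The libraries were made for the Ion Proton, and the authors deposited RPKM values per gene, with no counts. The authors' methods name hg38, SVA for batch effects and edgeR for differential expression, whereas the submitters' processing notes name GRCh 37. Which build the tables rest on was not settled, and no coordinates were taken from them. The study's columns of genes were used by symbol, and 4 of the 77 further genes were matched by an older symbol.

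Between-library scaling used trimmed mean log ratios (factors 0.904 to 1.11). The 13885 genes that reached an RPKM of 1 in 2 or more libraries were tested by limma with a trended prior variance on log2(scaled RPKM + 1). The members, lists and tests were chosen with earlier results of these data known. Values in every library are given for the 2 members of each role with the smallest p, the 5 with the highest level and members whose groups did not overlap with an absolute log2FC over 0.5, and for others where space allowed. Of the further genes, the 3 lower and 3 higher with the smallest p are named. One marker of the cell lines is not reported here.

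Library totals were recovered from small RNA genes whose length is annotated (96.2% to 97.6% of them gave whole reads), and reads per gene by finding the length that gave whole reads. Reads of *PGK1* and *CA12* are uncertain by a common factor of 2. Scripts were tested on simulated data. Alternatives covered scaling, pseudocount, filter, prior variance, replicate block, length, limma-voom (with a filter of 1 CPM added after seeing the data) and leaving out each library. Software: limma 3.58.1 in R 4.3.3, with tables and figures made in Python 3.11.15 (scipy 1.17.1, pandas 2.3.3, numpy 2.4.6, matplotlib 3.10.9).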

Additional observations from a re-analysis of the deposited data

How the results depend on the processing

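Replicate numbers in the labels mark no shared culture or day, and libraries with the same number barely deviated together (r = 0.07 across genes). A fit with the replicate number as a block gave 63 genes past the threshold, against 8 without it, and no member. It left the median log2FC of the members at −0.26 and of the enzymes at −0.41. The block with the length correction gave 368 genes, 2 members (*PGAM1* and *NDRG1*) and 1 further pathway gene. The number of all genes past the threshold was 2 with a pseudocount of 0.1, 0 without a filter, 197 with a filter of 1 CPM, 1 without the trend, 15 with the length correction, 300 in limma-voom and 366 in limma-voom with the filter of 1 CPM. Leaving out 1 library at a time gave 0 to 937, with 937 without NC 1 and 0 without each of the others, and 0 to 2 of the further pathway genes. Limma-voom passed 1 member, with and without the filter of 1 CPM, and the filter of 1 CPM and both forms of limma-voom passed 1 further pathway gene, *ERO1L*. Medians without scaling were −0.087 for the members, −0.24 for the enzymes and 0.24 for the HIF targets, or −0.24, −0.39 and 0.09 relative to all genes, and the member median was −0.21 with upper quartile scaling. With 1 library left out they ranged from −0.34 to −0.16, −0.57 to −0.26 and −0.042 to 0.18. The mean difference in the share of *SLC2A3* was 0.27 percentage points with its copies added. The causes were not tested. In fits without 1 library, the lone library was assumed to vary like the others.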
